A study of Mus musculus with 59 samples.

Results

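The response of the brown adipose tissue (BAT) of hypothyroid mice was examined 12 h after a single injection of thyroid hormone (TH). The comparison was set by the sample labels alone and took 8 of the 59 mice of the series, which were 4 wild-type mice labelled PTU+TH 12h (mice B19, B20, B21 and B23) and 4 wild-type mice labelled PTU (mice B2, B3, B4 and B5). The question was which genes differ between these groups and what they are known to do, with the genes of the circadian clock kept apart. RNA-seq read counts were given for 55341 genes, of which 13003 had a mean normalized count over 10 in the 20 wild-type mice of the time course and were tested. All these mice were C57BL/6J males of 8 to 12 weeks. Both groups had been made hypothyroid with propylthiouracil (PTU), an inhibitor of TH synthesis given with the food, so that the controls were hypothyroid and not euthyroid mice. The treated mice had then received 1 intraperitoneal injection holding both T3, the active hormone, and T4, its precursor, and other mice of the time course were taken 3 h, 6 h and 24 h after it. The labels do not say whether the PTU group was injected with a vehicle, and neither the labels nor the methods give the hour of the day at injection or at collection. For a gene that cycles over the day, the hormone and the hour can therefore not be told apart.

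BAT produces heat by burning fatty acids in mitochondria that are uncoupled by UCP1, under the control of sympathetic nerves acting through adrenergic receptors and cAMP. T3 enters the brown adipocyte or is made there from T4 by the deiodinase DIO2, and binds the receptors TRα1 and TRβ1 (genes Thra and Thrb), which sit on DNA with a retinoid X receptor and switch from corepressors to coactivators when T3 is bound. The circadian clock is a loop in which CLOCK or NPAS2 pairs with BMAL1 (gene Arntl) to activate Per, Cry, Nr1d1, Nr1d2, Dbp, Tef and Ciart, whose products then repress the pair or tune the cycle.

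The total count per library ranged from 7805938 to 13023856 in the 12 h mice and from 12022144 to 14615534 in the PTU mice. Transcripts of the mitochondrial genome took 49.7% to 51.8% of the counts at 12 h and 47.3% to 55.7% in PTU. Nothing in the labels says whether the mice of a group shared a cage or a day of collection, so that p-values measure the spread between these libraries. The tissue label was checked against 6 markers of brown adipocytes, all of which were tested, and their summed normalized count was between 183980 and 209854 in PTU and between 204649 and 285123 at 12 h. Ucp1 was higher in this list, and Adipoq, Plin1 and Fabp4 were lower. Of 10 markers of skeletal muscle, which borders this fat depot, 1 (Myl1) was called lower. Their sum was 8995, 1203, 3895 and 6066 in the PTU mice, 4320, 579, 327 and 1060 in the 12 h mice, 3667 to 21983 at 6 h and 3759 to 15414 at 24 h. It varied within each group, but its median was lowest at 12 h, with 4980 in PTU, 819 at 12 h, 8907 at 6 h and 10375 at 24 h. The 12 h mice B20, B21 and B23 lay under all PTU, 6 h and 24 h mice, and 12 h mouse B19 lay within their range. The part of muscle in the results was not tested. The sum of 6 endothelial markers was between 4394 and 4525 in PTU and between 3428 and 4257 at 12 h, with Cdh5 and Cldn5 called lower. The sum of the nerve markers was between 846 and 957 in PTU and between 707 and 826 at 12 h, with 1 of the 5 markers at 0 in all libraries. Of 6 fibroblast markers, Pi16 and Dpp4 were called lower, though not without any single one of PTU mice B2 and B4 and 12 h mice B20 and B21 for Pi16 and PTU mouse B2 or 12 h mouse B21 for Dpp4 (adjusted p up to 0.0913 and 0.0564). Of 5 smooth muscle markers Cnn1 was called higher, though not without PTU mice B2 or B3 or 12 h mouse B21 (adjusted p up to 0.126). The sums of the endothelial and of the nerve markers were lower in all 12 h mice than in all PTU mice, and the part of these cells in the results was not tested. The sums of the fibroblast, smooth muscle, macrophage, lymphocyte and erythroid markers overlapped between the groups. In such bulk samples, fewer cells of a type and less RNA per cell cannot be told apart.

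At 12 h, 1769 genes were upregulated against PTU, which is 13.6% of those tested, and 1577 were downregulated, which is 12.1%, at a Benjamini-Hochberg adjusted p under 0.05 in the quasi-likelihood test of edgeR. Called genes in either direction were 25.7% of the genes tested. The change was at least 2-fold for 528 upregulated and 420 downregulated genes, and the 4 values of each group did not overlap for 1493 of the upregulated and 1255 of the downregulated genes. These genes had been called on the same values, so that the lack of overlap is a description and no further support. The median log2 fold change was 0.73 over the upregulated genes, -0.70 over the downregulated genes and -0.02 over all genes tested. Protein-coding genes made up 1557 of the upregulated and 1453 of the downregulated genes. Without the mouse of each group that was richest in muscle markers (PTU mouse B2 and 12 h mouse B19), an alternative chosen after the data were seen, 1318 genes were upregulated and 1221 downregulated. The mice that remained had muscle marker sums of 1203, 3895 and 6066 in PTU and 579, 327 and 1060 at 12 h. The groups were then separate in muscle markers, so that this alternative cannot show how far a call depends on muscle. The other times of the course share these PTU mice. Against PTU, 9.19% of genes were called in either direction after 3 h, 23% after 6 h and 32.7% after 24 h.

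Of the 25 genes of the clock list, all of which were tested, 12 were upregulated at 12 h, 4 were downregulated and 9 did not pass the threshold. The upregulated share of 48.0% stood against 13.6% of all genes tested, while the downregulated share of 16.0% was near their 12.1%. The median log2 fold change of the list was 0.59, and that of all genes tested was -0.02. Arntl and Npas2 were downregulated, and Per2, Per3, Ciart and the PAR bZIP transcription factors Dbp, Tef and Hlf were upregulated. The promoters of clock genes hold short motifs that are read by the clock proteins, and windows from 250 bases before to 50 bases after a RefSeq transcription start (build GRCm38.p6) were available for 20 of the 25 genes. The motifs searched on both strands were the E-box CACGTG, to which CLOCK and BMAL1 bind, the D-box TTATGNAA, to which DBP, TEF and HLF bind as activators and NFIL3 as a repressor, and the core TAGGTCA of the element that is bound by ROR receptors as activators and by NR1D1 and NR1D2 as repressors. The 5 windows below, 1 per gene, are shown because they carry these motifs and belong to clock genes called at 12 h, with the motifs in capitals and the rest in lower case. The window of Ciart is chr3:95882179-95882478 (minus strand), that of Tef is chr15:81802423-81802722 (plus strand), that of Per3 is chr4:151044616-151044915 (minus strand), that of Arntl is chr7:113207261-113207560 (plus strand) and that of Nfil3 is chr13:52980990-52981289 (minus strand).
Ciart: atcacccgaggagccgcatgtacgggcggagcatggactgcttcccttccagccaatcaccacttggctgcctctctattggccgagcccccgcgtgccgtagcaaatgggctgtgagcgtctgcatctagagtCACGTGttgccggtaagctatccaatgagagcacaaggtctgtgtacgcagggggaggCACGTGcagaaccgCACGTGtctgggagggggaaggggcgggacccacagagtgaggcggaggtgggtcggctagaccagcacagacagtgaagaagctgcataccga
Tef: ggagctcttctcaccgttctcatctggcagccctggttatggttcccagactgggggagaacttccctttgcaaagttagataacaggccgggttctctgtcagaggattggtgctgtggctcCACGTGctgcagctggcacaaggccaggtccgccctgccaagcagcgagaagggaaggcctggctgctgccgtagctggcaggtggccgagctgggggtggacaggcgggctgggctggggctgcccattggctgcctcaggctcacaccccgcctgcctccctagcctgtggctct
Per3: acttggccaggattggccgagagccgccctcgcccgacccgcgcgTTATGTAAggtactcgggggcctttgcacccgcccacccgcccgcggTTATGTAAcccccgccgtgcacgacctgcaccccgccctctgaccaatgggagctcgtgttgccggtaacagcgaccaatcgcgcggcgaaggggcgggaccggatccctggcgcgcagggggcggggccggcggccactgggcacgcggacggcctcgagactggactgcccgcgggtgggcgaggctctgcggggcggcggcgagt
Arntl: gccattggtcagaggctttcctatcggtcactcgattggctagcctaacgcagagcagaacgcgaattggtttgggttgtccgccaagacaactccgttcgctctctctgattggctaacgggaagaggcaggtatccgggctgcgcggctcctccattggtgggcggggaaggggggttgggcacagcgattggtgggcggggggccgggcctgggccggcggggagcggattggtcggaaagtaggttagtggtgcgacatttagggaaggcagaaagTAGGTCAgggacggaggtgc
Nfil3: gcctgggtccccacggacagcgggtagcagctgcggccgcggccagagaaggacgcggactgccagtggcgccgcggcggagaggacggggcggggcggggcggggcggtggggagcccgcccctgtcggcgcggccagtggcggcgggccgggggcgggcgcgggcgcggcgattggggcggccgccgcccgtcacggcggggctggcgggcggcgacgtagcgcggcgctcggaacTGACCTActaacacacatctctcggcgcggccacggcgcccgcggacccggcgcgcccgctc

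The E-box stood in the windows of Tef (both the one shown and that of its second start site) and Ciart among the 9 upregulated clock genes with a window, in 0 of the 4 downregulated genes, and in Per1, Cry1 and Bhlhe41 among the 7 genes with a window that were not called. The D-box stood in Per3 among the upregulated genes and in Per1 and Timeless among those not called. The core of the ROR element stood in Arntl and Nfil3, both downregulated, and in 0 of the other clock windows. Over all 32851 mouse windows of this length, 7.15% held the E-box, 3.38% the D-box and 2.61% the core of the ROR element. Counted by gene in any of its windows, as for the clock genes, these were 2187, 1079 and 802 of 27025 genes. The DR4 element of the TH receptors, written as a perfect direct repeat of AGGTCA with 4 bases between, was found in 0.0152% of all windows and in 0 of those of clock genes. A match describes the letters of the window and does not show that a factor binds there.

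Among the activators of the loop, Arntl had 182, 198, 85.8 and 209 normalized counts in PTU mice B2, B3, B4 and B5 and 8.16, 8.25, 12.02 and 72.4 in 12 h mice B19, B20, B21 and B23, the order in which values are given throughout. The groups did not overlap, and 12 h mouse B23 lay apart from the other 3 mice, just under the lowest PTU mouse. Arntl was downregulated with a log2 fold change of -2.86 and a standard error of 0.51 (adjusted p = 0.00026 by the edgeR test named above, which gave all adjusted p below), and the log2 fold change was -4.12 to -2.48 over the alternative settings. Npas2, the paralog of Clock, had 97.7, 121, 38.6 and 81.2 in PTU against 6.12, 1.38, 5.46 and 1.54 at 12 h, with all 4 treated mice under 7 counts. Npas2 was downregulated (log2 fold change -4.37, standard error 0.74, adjusted p = 0.000149). Clock itself fell less, from 887, 929, 687 and 762 in PTU to 392, 330.1, 448 and 538 at 12 h, without overlap (log2 fold change -0.94, standard error 0.17, adjusted p = 0.000245).

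Among the repressors, Per2 had 25.6, 9.16, 44.9 and 30.03 normalized counts in PTU and 514, 502, 569 and 715 at 12 h, so that every treated mouse was above 500 and every PTU mouse under 50. Per2 thus rose 20.2-fold (log2 fold change 4.33, standard error 0.42, adjusted p = 1.83e-07). Per3 rose from 61.6, 54.99, 146 and 52.3 to 560, 614, 669 and 331, where PTU mouse B4 lay apart from the others but still under all treated mice (log2 fold change 2.76, standard error 0.33, adjusted p = 3.11e-06). Ciart, which encodes a repressor of CLOCK and BMAL1, was close to the floor in PTU with 0.948, 5.73, 1.57 and 2.22 and reached 91.8, 71.5, 44.8 and 40.04 at 12 h (log2 fold change 4.60, adjusted p = 3.1e-06). Cry2 was upregulated by 0.70 on the log2 scale (adjusted p = 0.0179), from 108, 144, 177 and 112 to 188, 215, 263 and 216. The groups did not overlap for Cry2 either, but its call was lost without PTU mice B2 or B5 or 12 h mouse B21 (adjusted p up to 0.0672 over the alternatives). Per1 had 54.1, 76.8, 200 and 170.2 and 135, 215, 236 and 160.2, with overlap, and its log2 fold change of 0.56 did not pass the threshold (adjusted p = 0.466). Cry1 had 107, 128, 31.5 and 120.1 and 42.8, 79.8, 92.9 and 78.5, also with overlap (log2 fold change -0.39, adjusted p = 0.555).

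The nuclear receptors of the second loop differed from each other. Nr1d2, a repressor of Arntl, had 95.8, 65.3, 174 and 45.6 in PTU and 454, 421, 390 and 274 at 12 h, without overlap (log2 fold change 1.99, standard error 0.29, adjusted p = 2.33e-05). For its paralog Nr1d1 the values were 853, 638, 902 and 330.3 and 543, 824, 366 and 444, with overlap (log2 fold change -0.33, adjusted p = 0.555), and the end of Nr1d1 overlaps by 263 exon bases with Thra on the opposite strand. Rora did not pass the threshold, with a log2 fold change of -0.25 (adjusted p = 0.176). All 3 PAR bZIP factors, which activate D-box genes of metabolism, were upregulated. Dbp had 4.74, 12.6, 71.7 and 15.6 in PTU and 876, 817, 658 and 356 at 12 h, with PTU mouse B4 apart from the other controls (log2 fold change 4.59, standard error 0.60, adjusted p = 7.13e-06). Tef rose from 162, 175, 328 and 169 to 1601, 1376, 1513 and 1118 (log2 fold change 2.74, adjusted p = 4.15e-07) and Hlf from 167, 253, 261 and 211 to 1108, 1345, 1208 and 869 (log2 fold change 2.34, adjusted p = 9.89e-07), both without overlap. Nfil3, whose product represses D-box genes, had 294, 401, 355 and 616 in PTU and 86.7, 74.3, 116 and 182 at 12 h, a downregulation without overlap (log2 fold change -1.87, standard error 0.47, adjusted p = 0.00495).

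Of the genes that modify clock proteins, Usp2, which encodes a deubiquitinase, was upregulated from 36.04, 61.9, 145 and 115 to 816, 1168, 909 and 893 (log2 fold change 3.39, adjusted p = 3.85e-07), and the groups were far apart. Csnk1e, a kinase of the PER proteins, was upregulated by 0.59 on the log2 scale (adjusted p = 0.016) with overlap, and the call was lost without PTU mice B2 or B3 or 12 h mouse B20 (adjusted p up to 0.064). Bhlhe40, a repressor of E-box genes, was called at a log2 fold change of 0.84 (adjusted p = 0.0483), also with overlap, but not without any single one of PTU mice B2, B3 and B5 and 12 h mice B19, B20 and B23 (adjusted p up to 0.152), and not when the mitochondrially encoded genes were left out. Its paralog Bhlhe41 had a log2 fold change of 0.90 that did not pass the threshold (adjusted p = 0.0668), but passed it without PTU mouse B5 (adjusted p from 0.0131 over the alternatives). Csnk1d, Fbxl21 and Timeless did not pass the threshold, with log2 fold changes between -0.26 and 0.30. Between 13 and 17 of the 25 clock genes were called over the alternative settings.

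**Figure D1:**
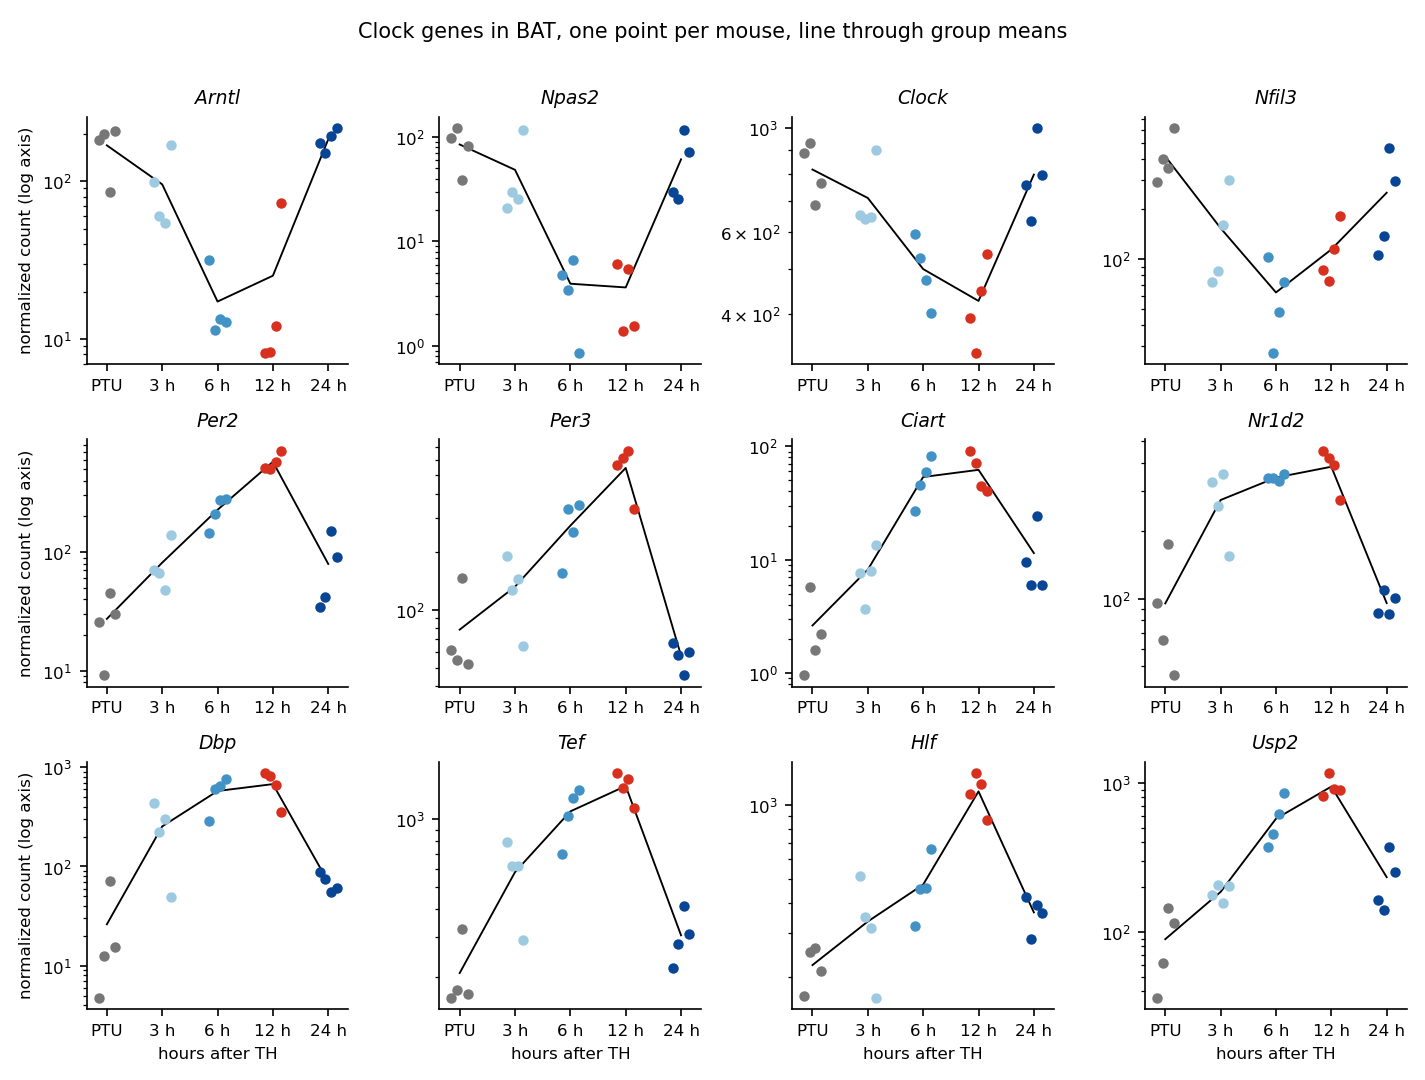
Normalized counts (log axis) of 12 clock genes in the PTU mice and 3 h, 6 h, 12 h and 24 h after TH, with 1 point per mouse, 4 mice per group and a line through the group means. Arntl, Npas2 and Clock are low at 6 h and 12 h and back near the PTU mice at 24 h, and Per2, Per3, Dbp, Tef and Hlf have their highest mean at 12 h.

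The position of 12 h within the course of the clock genes was read from the same mice. Against the 6 h mice, 2.95% of the genes tested differed, 207 of them higher (1.59%) and 177 lower (1.36%) at 12 h. These numbers rested on single mice, since 65, 102, 97 and 71 genes were higher without 6 h mice B12, B15 and B17 and 12 h mouse B21, and 52, 67, 78, 86 and 40 were lower without 6 h mice B12, B15 and B17 and 12 h mice B20 and B21. In the clock list 3 genes were higher at 12 h than at 6 h and 1 was lower. Against the 24 h mice, 11.4% of the genes differed, 754 higher (5.8%) and 726 lower (5.58%) at 12 h. Without 12 h mouse B19 or B21 or 24 h mouse B26 or B28, 439, 470, 498 and 462 were higher, and without 12 h mouse B21 or 24 h mouse B28, 418 and 482 were lower. In the clock list 11 genes were higher at 12 h and 3 lower. Per2 had a mean of 227 ± 62.6 normalized counts (SD, n = 4) at 6 h, 575 ± 97.6 at 12 h and 79.5 ± 53.1 at 24 h, and differed at 12 h from 6 h (log2 difference 1.34, adjusted p = 0.0394) and from 24 h (log2 difference 2.82, adjusted p = 7.83e-05), where the call against 6 h was lost without any single one of the 8 mice compared (adjusted p up to 0.131). Hlf was also higher than at 6 h, with 474 ± 139 at 6 h and 1133 ± 201 at 12 h (log2 difference 1.26, adjusted p = 0.00953). Nr1d1 was the gene that was lower than at 6 h, with 1638 ± 279.5 at 6 h and 544 ± 200.2 at 12 h (log2 difference -1.59, adjusted p = 0.0252), a call that was lost without any single one of 12 h mice B21 and B23 and 6 h mice B12 and B17 (adjusted p up to 0.0888). At 24 h, Arntl (184 ± 27.8), Npas2 (61.05 ± 42.8), Clock (796 ± 154), Per3 (57.6 ± 8.92) and Nr1d2 (95.5 ± 11.8) were no longer called against PTU, where their means were 169 ± 56.4, 84.7 ± 34.9, 816 ± 112, 78.7 ± 44.9 and 95.2 ± 56.5. The plot of the clock genes by time shows the mice of each group. As the hour of the day is not given for any of these times, the course after TH cannot be told apart from a daily cycle.

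Outside the clock, the strongest upregulation was seen for genes that were nearly silent in PTU. Gm32468, a noncoding gene at chr10:93084206-93093727 (mm10), had 0, 1.15, 1.57 and 1.11 normalized counts in PTU and 359, 631, 508 and 622 at 12 h. With 4.00 reads in all in the PTU libraries, the ratio of the summed counts was 526 (exact 95% interval 205 to 1932, counting error only, adjusted p = 3.66e-10). 9030619P08Rik at chr15:75427606-75431829 had 0, 0, 0 and 2.22 in PTU and 159, 186, 169 and 257 at 12 h, with 2.00 PTU reads in all and a ratio of 384 (exact 95% interval 106 to 3176, adjusted p = 2.39e-10), and as a pseudogene it may share reads with its relatives. Slco4a1, which encodes a membrane transporter that carries TH, rose from 2.85, 1.15, 3.15 and 3.34 to 297, 336, 291 and 369.6 (log2 fold change 6.84, standard error 0.38, adjusted p = 5.74e-11). In these 3 genes every treated mouse was above 150 counts and every PTU mouse under 4.

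Apln, which encodes the secreted vascular peptide apelin, had 7.59, 5.73, 3.94 and 4.45 in PTU and 230.5, 232, 300.4 and 209.5 at 12 h (log2 fold change 5.47, standard error 0.40, adjusted p = 4.13e-09). Fndc5, the precursor of irisin, had 4.74, 1.15, 1.57 and 4.45 and 93.8, 99.04, 117 and 146 (log2 fold change 5.21, standard error 0.52, adjusted p = 2.53e-07). Both genes were far above all PTU mice in each treated mouse. Loxl1, a lysyl oxidase that crosslinks elastin, rose from 57.9, 61.9, 41.7 and 32.3 to 717, 746, 817 and 846 (log2 fold change 4.01, adjusted p = 6.17e-11), and Id2, an inhibitor of bHLH transcription factors, from 111, 106, 147 and 160.2 to 1761, 1922, 2015 and 1716 (log2 fold change 3.82, adjusted p = 2.59e-06). Slc40a1, the iron exporter ferroportin, rose from 85.4, 95.1, 75.6 and 97.9 to 962, 733, 1026 and 976 (log2 fold change 3.39, adjusted p = 6.11e-10). The spread within each group of these 3 genes was small beside the difference. The rest of the 12 genes with the largest increase were Fbxl2, an F-box protein, Cend1, a neuronal protein of cell cycle exit, Hr, which is described with TH action, and B430219N15Rik, with log2 fold changes of 4.42, 3.51, 3.59 and 4.59. Reads of B430219N15Rik cannot be told apart from those of Ginm1, with which it shares 157 exon bases on the opposite strand, since the strand setting of the counting was not given in the sources used here.

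The gene with the largest decrease was B3galt2, a galactosyltransferase of glycoproteins, which had 2656, 3867, 2443 and 2636 in PTU and 57.1, 67.4, 74.3 and 46.2 at 12 h (log2 fold change -5.55, standard error 0.37, adjusted p = 8.89e-10). PTU mouse B3 lay above the other controls, and all 4 treated mice were under 75. Of its exons, 679 bases lie opposite exons of Cdc73, so that part of these reads is uncertain. Tshr, the receptor of thyrotropin, fell from 508, 915, 413 and 816 to 37.7, 41.3, 36.05 and 27.7 (log2 fold change -4.20, standard error 0.30, adjusted p = 2.78e-09). Adrb3, the main adrenergic receptor of brown adipocytes, fell from 4136, 4121, 3923 and 3759 to 620.2, 298, 528 and 253 (log2 fold change -3.22, standard error 0.37, adjusted p = 1.36e-06), a 9.32-fold decrease. Mc2r, the receptor of corticotropin, fell from 166, 214, 186 and 199 to 17.3, 41.3, 32.8 and 27.7 (log2 fold change -2.70, adjusted p = 7.05e-08). The receptors Tshr, Adrb3 and Mc2r, all of which act through Gs and cAMP in adipocytes, were thus lower in every treated mouse than in any PTU mouse.

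Gpat3, an enzyme of triglyceride synthesis, fell from 452, 511, 329.9 and 382 to 63.2, 44.02, 46.98 and 56.99 (log2 fold change -2.98, adjusted p = 5.82e-08). Trarg1, a protein that takes part in the traffic of the glucose transporter GLUT4, fell from 1003, 1220, 1235 and 1434 to 179.5, 226, 272 and 154 (log2 fold change -2.55, adjusted p = 2.53e-07), and Nabp1, a protein binding single-stranded DNA, from 13310, 13120, 6691 and 10320 to 1689, 1861, 1611 and 1194 (log2 fold change -2.77, adjusted p = 2.56e-07). These genes were abundant in PTU and did not overlap between the groups. Cldn5, the claudin of endothelial tight junctions, fell from 177, 150.1, 202 and 149 to 22.4, 30.3, 26.2 and 30.8 (log2 fold change -2.64, adjusted p = 1.83e-06), more than the summed endothelial markers given above, and the part of the cell makeup in this result was not tested. Gem, a small GTPase, Dapk1, a kinase of cell death, Thbs1, a matrix glycoprotein that inhibits vessel growth, and Unc119, a carrier of lipidated proteins, complete the 12 genes with the largest decrease by the same rule, with log2 fold changes of -3.12, -2.81, -2.65 and -2.64.

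**Figure D2:**
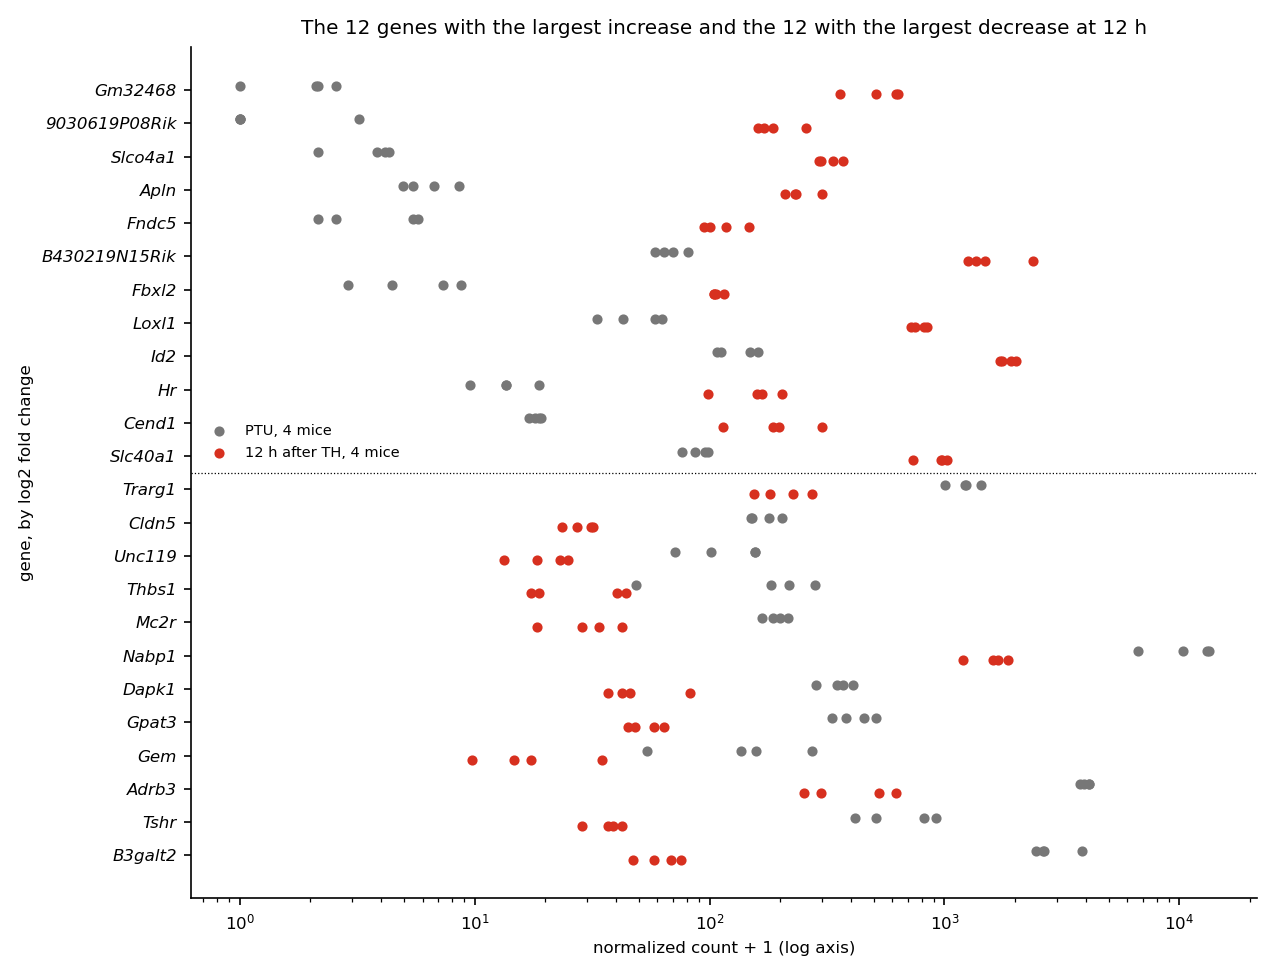
Normalized count plus 1 (log axis) of the 12 genes with the largest increase (above the dotted line) and the 12 with the largest decrease (below it) outside the clock list, with 1 point per mouse, 4 PTU mice in grey and 4 mice 12 h after TH in red. The groups do not overlap for any of these genes, which was part of the rule that chose them, and Gm32468 and 9030619P08Rik are at or near 0 in the PTU mice.

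Of the genes of TH action, 19 of 24 were tested, 8 were upregulated and 4 downregulated (42.1% and 21.1% of the list, against 13.6% and 12.1% of all genes), with a median log2 fold change of 0.30. Hr, which encodes a corepressor and is a known target of TH, had 8.54, 12.6, 12.6 and 17.8 in PTU and 97.9, 158, 166 and 203 at 12 h (log2 fold change 3.59, adjusted p = 5.08e-08). Klf9, another known target, rose from 872, 1024, 1070 and 922 to 3448, 3431, 3603 and 3910 with little spread (log2 fold change 1.89, standard error 0.10, adjusted p = 4.79e-11). Dio2, the enzyme that makes T3 from T4, had 376, 1435, 1095 and 2961 in PTU and 3527, 2257, 6312 and 6955 at 12 h. The groups overlapped (log2 fold change 1.70, standard error 0.53, adjusted p = 0.0221), and the call was lost without any single one of PTU mice B2, B3 and B4 and 12 h mice B21 and B23 (adjusted p up to 0.0664). Nrip1, which encodes the corepressor RIP140, was downregulated, with a log2 fold change of -1.21. Of the receptors, Thra was downregulated from 332, 288, 402 and 373 to 224, 226, 271 and 217 (log2 fold change -0.57, adjusted p = 0.00162) with mouse B21 apart from the other treated mice, and with the overlap with Nr1d1 given above. Thrb did not pass the threshold (0.17, adjusted p = 0.295). Of their partners, Rxrb was upregulated (0.84) and Rxra downregulated (-0.44), and the coactivator gene Ncoa1 was downregulated (-0.55). Without 12 h mouse B21, 5 genes of the list were upregulated.

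Of 21 thermogenic genes tested, 6 were upregulated and 3 downregulated, with a median log2 fold change of 0.21. The upregulated share was 28.6%, against 13.6% of all genes, and the downregulated share of 14.3% was near their 12.1%. Ucp1, the uncoupling protein, had 67140, 56420, 62340 and 77440 normalized counts in PTU and 156600, 106600, 191100 and 201300 at 12 h. It was higher in every treated mouse than in any PTU mouse, by 2.49-fold (log2 fold change 1.32, standard error 0.21, adjusted p = 7.77e-05), and its share of all counts rose from between 0.396% and 0.579% to between 0.783% and 1.67%. Esrrg, a nuclear receptor of oxidative genes, was upregulated (1.33, adjusted p = 2.29e-07) together with its paralog Esrra (0.75), and so were Pank1, the first enzyme of coenzyme A synthesis (1.23, adjusted p = 7.96e-09), the thioesterase Acot11 (1.73) and the fatty acid binding protein Fabp3 (1.59). Downregulated were the nuclear receptor of fatty acid oxidation Ppara (-1.36, adjusted p = 0.000217) and the brown fat determination factor Ebf2 (-0.67, adjusted p = 0.000349), all on the log2 scale. Ppargc1a, the coactivator of mitochondrial genes, had 326, 347, 612 and 1066 in PTU and 776, 658, 609.6 and 1443 at 12 h, with overlap, and did not pass the threshold (0.57, adjusted p = 0.315).

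Of 26 adrenergic and cAMP genes tested, 5 were upregulated and 6 downregulated (19.2% and 23.1% of the list, against 13.6% and 12.1% of all genes), with a median log2 fold change of 0.05. Among the receptors, Adrb3 was downregulated as described, and Adrb1 did not pass the threshold (0.07, adjusted p = 0.867). Among the enzymes that make cAMP, the soluble cyclase Adcy10 rose from 25.6, 18.3, 12.6 and 32.3 to 121, 100.4, 165 and 171 (log2 fold change 2.67, adjusted p = 4.62e-07), and Adcy3 was called higher (0.80) with overlap, though not without 12 h mouse B21 (adjusted p up to 0.0729). Among the phosphodiesterases that degrade it, Pde3a fell from 522, 497, 450.4 and 379 to 205, 124, 232 and 206 (log2 fold change -1.26, adjusted p = 3.39e-05), and Pde3b (-0.92) and Pde4d (-1.07) were also downregulated. Without the mice richest in muscle markers, 2 genes of the list were upregulated.

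**Figure D3:**
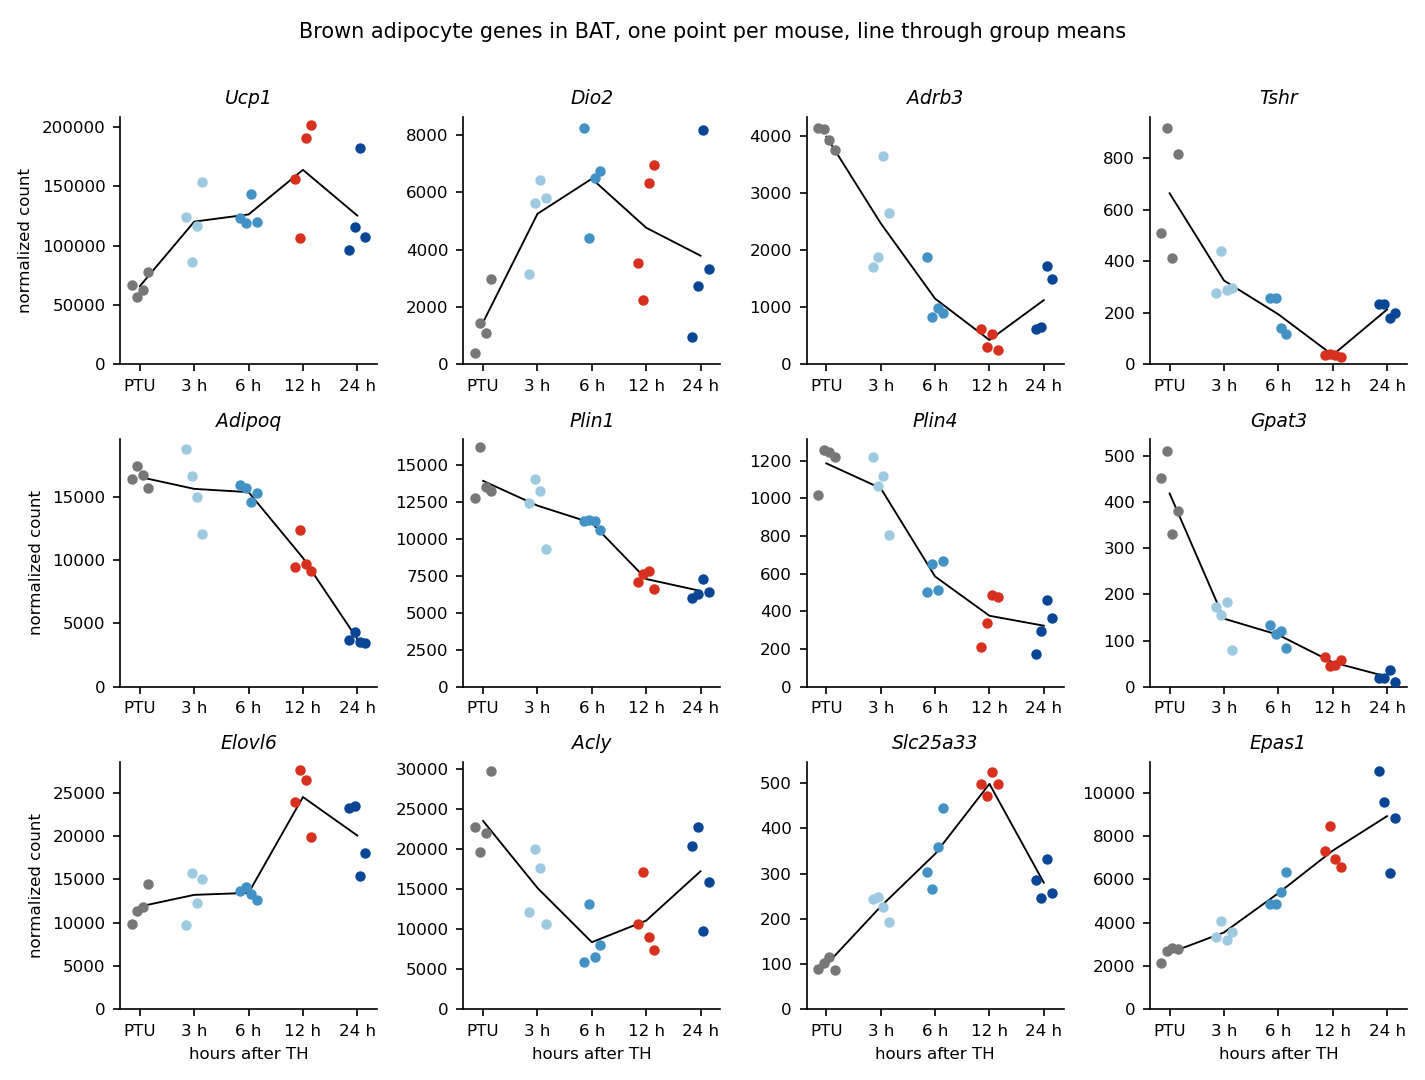
Normalized counts (linear axis from 0) of 12 genes of brown adipocyte function in the PTU mice and 3 h, 6 h, 12 h and 24 h after TH, with 1 point per mouse, 4 mice per group and a line through the group means. At 12 h the treated mice lie above all PTU mice for Ucp1, Elovl6, Slc25a33 and Epas1 and under all of them for Adrb3, Tshr, Adipoq, Plin1, Plin4, Gpat3 and Acly, while Dio2 overlaps.

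Genes of lipid storage were called in both directions. Of 19 lipogenic genes tested, 3 were upregulated and 2 downregulated, with a median log2 fold change of 0.01, and these shares (15.8% and 10.5%) were near the 13.6% and 12.1% of all genes tested. Elovl6, which elongates palmitate, rose from 9797, 11350, 11810 and 14470 to 23940, 27680, 26520 and 19870 (log2 fold change 1.05, adjusted p = 5.02e-05), and Mlxipl, which encodes the glucose sensing factor ChREBP, was upregulated (0.83, adjusted p = 0.00208). Mid1ip1, which encodes an activator of acetyl-CoA carboxylase, was called (1.14) but not without any single one of PTU mice B2, B3 and B4 and 12 h mouse B20 (adjusted p up to 0.0968). Acly, which makes cytosolic acetyl-CoA from citrate, fell from 22730, 19660, 22000 and 29760 to 10650, 17190, 9051 and 7399 without overlap (log2 fold change -1.09, adjusted p = 0.00793). The citrate carrier Slc25a1 was called lower (-0.46, adjusted p = 0.0374) with overlap, and not without any single one of PTU mice B4 and B5 and 12 h mice B19, B21 and B23 (adjusted p up to 0.13). Thrsp (0.31, adjusted p = 0.307) and Me1 (-0.34, adjusted p = 0.251), both known targets of TH in other tissues, did not pass the threshold, and 5 genes of the list were upregulated without 12 h mouse B23.

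Of 18 genes of triglyceride synthesis tested, 5 were upregulated (27.8%, against 13.6% of all genes) and 2 downregulated (11.1%, near their 12.1%), with a median of 0.25. Gpd2, the mitochondrial glycerol phosphate dehydrogenase, rose from 7004, 6790, 7486 and 8610 to 16170, 18410, 19170 and 16940 (log2 fold change 1.24, standard error 0.11, adjusted p = 7.12e-08), and the phosphatidate phosphatase Lpin3 from 0.948, 0, 1.57 and 7.79 to 33.7, 39.9, 34.96 and 33.9 (log2 fold change 3.79, adjusted p = 2.44e-05). No treated mouse overlapped with a PTU mouse for these genes. Dgat2, which makes triglycerides (1.10), and Agpat1 (0.83) were also upregulated, and Gpam (0.58, adjusted p = 0.0435) was called, though not without any single one of PTU mice B2, B3, B4 and B5 and 12 h mice B19, B21 and B23 (adjusted p up to 0.116). Beside Gpat3, Pck1, the enzyme of glyceroneogenesis, was downregulated from 18810, 23560, 21520 and 15000 to 5421, 3502, 6689 and 6966 (log2 fold change -1.80, adjusted p = 0.00549).

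Of 15 genes of the lipid droplet and of lipolysis tested, 2 were upregulated (13.3%, near the 13.6% of all genes) and 6 downregulated (40%, against their 12.1%), with a median of -0.27. The droplet protein Plin1 fell from 12760, 16240, 13500 and 13250 to 7094, 7647, 7812 and 6617 (log2 fold change -0.93, standard error 0.12, adjusted p = 3.79e-06), and Plin4 from 1019, 1259, 1245 and 1219 to 208, 336, 486 and 476 (log2 fold change -1.66, adjusted p = 2.87e-05). The groups were separate for both. The hormone-sensitive lipase Lipe (-0.80) and Abhd5 (-0.73), the coactivator of ATGL, were downregulated as well. Hilpda, an inhibitor of ATGL, was upregulated (1.25, adjusted p = 0.00808). Pnpla2, which encodes ATGL, was called higher at 0.49 (adjusted p = 0.0484), but not without any single one of PTU mice B2, B3, B4 and B5 and 12 h mice B20, B21 and B23 (adjusted p up to 0.22).

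Of 20 genes of fatty acid uptake tested, 6 were upregulated and 5 downregulated (30.0% and 25.0% of the list, against 13.6% and 12.1% of all genes), with a median of 0.13. Angptl4, an inhibitor of lipoprotein lipase, fell from 792, 934, 740.2 and 692 to 216, 195, 367 and 222 (log2 fold change -1.65, adjusted p = 0.000456), and Acsl1, which activates fatty acids, was downregulated (-0.70, adjusted p = 0.00251) with Slc27a1 (-0.76), Fabp4 (-0.53) and Cd36 (-0.43). Lpl, the lipase itself, was called higher (0.39, adjusted p = 0.036), but not without any single one of PTU mice B2, B4 and B5 and 12 h mice B19, B21 and B23 (adjusted p up to 0.194). Without the mice richest in muscle markers, 3 genes of this list were upregulated. Of 25 genes of mitochondrial beta-oxidation tested, 3 were upregulated and 0 downregulated, with a median of 0.01, and the upregulated share of 12.0% was near that of all genes. They were Ucp3 (1.17, adjusted p = 3.4e-06), the carnitine carrier Slc25a20 (0.52, adjusted p = 0.00154) and Cpt1a (0.71, adjusted p = 0.0348), and the call of Cpt1a was lost without any single one of PTU mice B2, B3, B4 and B5 and 12 h mice B19 and B23 (adjusted p up to 0.2).

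Among genes of mitochondrial supply and upkeep, most calls were upward. Of 38 carriers of the SLC25 family tested, which move metabolites over the inner membrane, 21 were upregulated and 3 downregulated (55.3% and 7.89% of the list, against 13.6% and 12.1% of all genes), with a median log2 fold change of 0.41. Slc25a33, a carrier of pyrimidine nucleotides, rose from 88.2, 103, 115 and 86.8 to 498, 472, 526 and 499 (log2 fold change 2.34, standard error 0.15, adjusted p = 3.66e-10), and the ornithine carrier Slc25a15 from 103, 97.4, 94.5 and 92.3 to 208, 154, 213 and 166 (log2 fold change 0.94, adjusted p = 9.93e-06). Neither overlapped between the groups. Slc25a25, an ATP-Mg carrier driven by calcium, fell from 70.2, 175, 146 and 241 to 16.3, 20.6, 40.4 and 38.5 (log2 fold change -2.45, adjusted p = 8.51e-05), and the dicarboxylate carrier Slc25a10 was downregulated (-0.87, adjusted p = 0.0118). Of 23 genes that maintain mitochondria and their DNA, 10 were upregulated and 0 downregulated (43.5% upregulated), with a median of 0.32. Among them were Tfam, the packaging factor of mitochondrial DNA (479, 450.2, 373 and 403 in PTU and 798, 619, 795 and 634 at 12 h, log2 fold change 0.74, adjusted p = 0.000248), the transcription factor Tfb2m (0.68, adjusted p = 0.00114), the helicase Twnk (0.92) and the RNA polymerase Polrmt (0.70). Of 76 proteins of the mitochondrial ribosome tested, 31 were upregulated and 1 downregulated (40.8% and 1.32%), with a median of 0.28. The changes were small and the mice close together, as for Mrps2 (1426, 1591, 1370 and 1596 and 2216, 2414, 2212 and 2643, log2 fold change 0.66, adjusted p = 5.08e-06) and Mrpl15 (0.68, adjusted p = 1.43e-05). Mrps6 was the member that fell (-0.68, adjusted p = 7.55e-05), and it shares 305 exon bases with Gm49711 on the same strand.

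In the respiratory chain, 8 of 37 nuclear subunits of complex I tested were upregulated and 0 downregulated (median 0.18), and 6 of 40 subunits of complexes III, IV and V with their partners were upregulated and 0 downregulated (median 0.14). The upregulated share was 21.6% for complex I, and 15.0% for the other complexes, near the 13.6% of all genes. Ndufa8 rose from 1651, 1652, 1754 and 1819 to 2538, 2541, 2305 and 2406 (log2 fold change 0.51, adjusted p = 7.87e-05), Ndufb10 by 0.61 (adjusted p = 0.000139), Cox7a2l, which joins complexes III and IV into supercomplexes, by 0.73 (adjusted p = 0.000333) and Atp5h by 0.39 (adjusted p = 0.00547), all without overlap. These counts depended on single mice, with 5 subunits of complex I upregulated without 12 h mouse B20, and 3 of the other complexes without PTU mouse B2, PTU mouse B3 or 12 h mouse B21, 2 of them without the mice richest in muscle markers, and 1 of them downregulated without 12 h mouse B19. Of 31 genes of the TCA cycle and of pyruvate entry tested, 11 were upregulated and 2 downregulated (35.5% and 6.45%), with a median of 0.23. Idh3a, a subunit of isocitrate dehydrogenase, rose from 19170, 20590, 16800 and 20960 to 33970, 27570, 32590 and 35770 (log2 fold change 0.74, adjusted p = 2.21e-05) and Suclg1, of succinyl-CoA ligase, from 2752, 2322, 2806 and 2959 to 4339, 4823, 4504 and 5366 (log2 fold change 0.81, adjusted p = 4.53e-06). The 2 lower members, Pdk1 (-0.53) and Pdp1 (-0.59), act on pyruvate dehydrogenase in opposite ways, and the calls were lost without any single one of PTU mice B2, B3 and B5 and 12 h mouse B23 for Pdk1 (adjusted p up to 0.0886) and without 12 h mice B19 or B20 for Pdp1 (adjusted p up to 0.126).

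Of 34 genes of glycolysis and glycogen tested, 11 were upregulated and 2 downregulated (32.4% and 5.88% of the list, against 13.6% and 12.1% of all genes), with a median of 0.19. Pfkfb1, which sets the level of the activator of phosphofructokinase, rose from 268, 334, 357 and 281 to 959.9, 1264, 1016 and 930.3 (log2 fold change 1.75, standard error 0.16, adjusted p = 9.28e-08), and Pgk1 from 205, 202, 198 and 240.2 to 373, 303, 375 and 394 (log2 fold change 0.78, adjusted p = 0.000174). The groups did not overlap for either. The hexokinase Hk1 (1.20), the glucose transporter Slc2a4 (0.62) and Gapdh (1.03) were upregulated too, the last one uncertain because many pseudogenes share its sequence. Slc2a1, the other glucose transporter, did not pass the threshold (-0.27, adjusted p = 0.362). Downregulated were Ppp1r3c, a targeting subunit that promotes glycogen synthesis (-1.14, adjusted p = 0.000102), and the glycogen phosphorylase Pygb (-0.91, adjusted p = 0.00115), and 4 genes of the list were downregulated without 12 h mouse B23. In the breakdown of branched-chain amino acids, 2 of 21 genes (Ppm1k and Slc25a44) were called higher (9.52%) and 1 lower (4.76%), and none of these 3 calls held in every fit without a single mouse, since 0 or 1 gene was called higher without any single mouse other than 12 h mouse B23, and 0 were called lower without PTU mouse B2 or B4 or 12 h mouse B20.

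Of 24 genes of cholesterol synthesis and uptake tested, 9 were upregulated and 1 downregulated (37.5% and 4.17% of the list, against 13.6% and 12.1% of all genes), with a median log2 fold change of 0.50. Sc5d, an enzyme near the end of the pathway, rose from 774, 884, 719 and 1743 to 3588, 3559, 2733 and 2906 (log2 fold change 1.64, adjusted p = 6.73e-05), with PTU mouse B5 above the other controls. Hsd17b7 rose from 192, 199, 178 and 311 to 460, 341, 542 and 447 (log2 fold change 1.03, adjusted p = 0.000342), and Fdft1 (1.02) was upregulated. Hmgcs1, an early enzyme of the pathway, went the other way, from 1925, 2693, 1610 and 2023 to 999.7, 906, 1091 and 895 (log2 fold change -1.08, adjusted p = 1.3e-05), without overlap, and without 12 h mouse B20 it was 1 of 2 downregulated genes of the list.

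Of 30 genes of insulin and mTOR signalling tested, 5 were upregulated and 9 downregulated (16.7% and 30.0% of the list, against 13.6% and 12.1% of all genes), with a median of 0.08. Akt1, a kinase of the pathway, rose from 168, 135, 179 and 161 to 342, 339.8, 478 and 453 (log2 fold change 1.32, adjusted p = 4.8e-06), and Foxo1, the transcription factor that AKT holds in check, from 571, 584, 984 and 983 to 2090, 1585, 2237 and 1999 (log2 fold change 1.34, adjusted p = 0.000382). Irs1, which links the insulin receptor to PI3K, fell from 416, 696, 1084 and 889 to 275, 250.4, 302 and 199 (log2 fold change -1.58, adjusted p = 0.000152). In all of these the groups were separate. Irs3 (-1.36) and the PI3K subunit Pik3cb (-0.86, adjusted p = 0.000213) were downregulated as well, and so were the mTOR inhibitors Ddit4l (-2.14), Sesn3 (-0.78) and Sesn2 (-1.18). The call of Sesn2 was lost without 12 h mouse B20 (adjusted p = 0.0578). Insr did not pass the threshold (0.24, adjusted p = 0.0929) unless PTU mouse B3 was left out. Without PTU mouse B2 or 12 h mice B20 or B21, 3 genes of the list were upregulated. Of 16 genes of growth hormone and IGF signalling tested, 3 were upregulated and 2 downregulated (median 0.02), or 18.8% and 12.5%. The transcription factors Stat5a (288, 387, 315 and 279 and 601, 691, 558 and 531, log2 fold change 0.91, adjusted p = 9.74e-05) and Stat5b (0.80, adjusted p = 9.29e-06) rose, and Ghr, the growth hormone receptor, fell from 3807, 4752, 3556 and 3365 to 2190, 2487, 2108 and 1710 (log2 fold change -0.87, adjusted p = 0.000202). Igf1 was the other gene called lower (-0.95), but not without any single one of PTU mice B3 and B4 and 12 h mice B19, B21 and B23 (adjusted p up to 0.121).

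Of 20 angiogenic genes tested, 10 were upregulated and 0 downregulated (50% upregulated, against 13.6% of all genes), with a median of 0.42, although 4 were upregulated without 12 h mouse B20 or B21, 5 without PTU mouse B2 and 6 without PTU mouse B3 or B5, and 1 was downregulated without 12 h mouse B20. Beside Apln, Epas1, which encodes the hypoxia inducible factor HIF2α, rose from 2108, 2681, 2809 and 2785 to 7326, 8445, 6937 and 6589 (log2 fold change 1.5, standard error 0.15, adjusted p = 2.27e-07). Vegfa, the main vascular growth factor, rose from 1325, 1490, 1568 and 1735 to 1980, 2084, 2222 and 2478 (log2 fold change 0.52, adjusted p = 0.00661). The sum of the endothelial markers did not rise with them, as given above. Of 19 secreted factors tested, 7 were upregulated and 4 downregulated (36.8% and 21.1%), with a median of -0.08, and without the mice richest in muscle markers 4 were upregulated. Fgf1, a growth factor, rose from 87.2, 68.7, 57.5 and 108 to 341, 418, 326 and 351 (log2 fold change 2.17, adjusted p = 4.47e-07), and Nampt, which makes NAD, from 2863, 2950, 2869 and 3385 to 4525, 5028, 4383 and 4048 (log2 fold change 0.58, adjusted p = 0.000405). Adipoq, which encodes adiponectin, fell from 16360, 17440, 16720 and 15680 to 9426, 12360, 9695 and 9169 (log2 fold change -0.70, adjusted p = 0.000185). Of 27 matrix genes tested, 2 were upregulated and 7 downregulated (7.41% and 25.9% of the list, against 13.6% and 12.1% of all genes), with a median of -0.31. Loxl1 and the protease inhibitor Timp3 (1.10, adjusted p = 2.48e-06) rose, and Lamb1 (605, 682, 772 and 772 and 264, 293, 282 and 334, log2 fold change -1.27, adjusted p = 1.67e-05) and Col5a3 (-1.89, adjusted p = 3.97e-05) fell. The matrix list had 3 downregulated genes without 12 h mouse B20 or B21 and 4 without PTU mouse B2.

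Of 18 genes of the creatine and calcium cycles tested, 7 were upregulated and 2 downregulated (38.9% and 11.1% of the list, against 13.6% and 12.1% of all genes) (median 0.21), and 5 were downregulated without 12 h mouse B19. Itpr2, a calcium channel of the endoplasmic reticulum (ER), rose from 499.8, 600.3, 665 and 657 to 1286, 1739, 1546 and 1180 (log2 fold change 1.25, adjusted p = 6.45e-07), the calcium pump Atp2a3 was upregulated (0.94, adjusted p = 5.41e-05) and the plasma membrane pump Atp2b4 downregulated (-0.95, adjusted p = 0.00038). Gatm, the first enzyme of creatine synthesis, was downregulated (-0.86, adjusted p = 0.00978). Of 18 immediate early genes tested, 0 were upregulated and 6 downregulated (33.3% downregulated), with a median of -0.96. Btg2, an antiproliferative factor, fell from 598, 1108, 795 and 652 to 129.5, 204, 191 and 129 (log2 fold change -2.27, adjusted p = 2.52e-06), and Egr3, a transcription factor, from 62.6, 95.1, 78.7 and 65.6 to 6.12, 20.6, 12.02 and 10.8 (log2 fold change -2.63, adjusted p = 0.00222). Nr4a3, a nuclear receptor, also fell (-3.50), with overlap between the groups. For Fos the groups did not overlap, but its log2 fold change of -1.61 did not pass the threshold (adjusted p = 0.0584), which it did with no filter on low counts or with a fit of the compared groups alone. The number of downregulated immediate early genes was 3 without PTU mouse B3 and 11 with no filter on low counts, and 1 was upregulated without PTU mouse B5. Of 12 Krüppel-like factors tested, 3 were upregulated and 2 downregulated, which are 25.0% and 16.7%, against 13.6% and 12.1% of all genes (median 0.11), with Klf13 going from 49.3, 41.2, 85.8 and 63.4 to 242, 278, 447 and 233 (log2 fold change 2.31, adjusted p = 1.83e-06) and Klf11 from 156, 200.5, 209 and 165 to 53.04, 78.4, 62.3 and 60.1 (log2 fold change -1.53, adjusted p = 2.78e-05). Klf16, the other gene called lower (-0.69), was not called without any single one of PTU mice B2, B4 and B5 and 12 h mice B19 and B20 (adjusted p up to 0.143).

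Of 21 ER chaperones and sensors tested, 3 were upregulated and 7 downregulated (median -0.03), which are shares of 14.3% and 33.3% against 13.6% and 12.1% of all genes. Manf, a secreted ER protein, rose from 409.7, 404, 361 and 346 to 1338, 812, 933 and 1211 (log2 fold change 1.5, adjusted p = 3.38e-07) and Herpud1 by 0.95 (adjusted p = 4.44e-06), while Creld2 (-0.82, adjusted p = 0.000827), Edem1 (-0.49, adjusted p = 0.00253) and the transcription factor Xbp1 (-0.67) fell. Hspa8 (1.40, adjusted p = 0.00119) and Fkbp4 (1.18, adjusted p = 4.47e-05) were the 2 upregulated genes of 20 cytosolic heat shock genes tested (10% upregulated, 0 downregulated, median 0.39), and 4 were upregulated without PTU mouse B5. Of 25 antioxidant genes tested, 4 were upregulated and 4 downregulated (median 0.13), 16.0% in each direction and so near all genes, with the transcription factor Nfe2l2 (0.87, adjusted p = 8.88e-06) upregulated and glutathione reductase Gsr (-1.12, adjusted p = 1.53e-06) and catalase Cat (16610, 16580, 13290 and 16630 and 9924, 8669, 6886 and 6828, log2 fold change -0.97, adjusted p = 2.02e-05) downregulated. Of 16 genes of the integrated stress response, 2 were called higher and 2 lower (median -0.01), 12.5% in each direction and again near all genes. Psph rose by 0.83 (adjusted p = 0.000274) and Nupr1 fell (-0.78, adjusted p = 0.00796), and the key factor Atf4 did not pass the threshold (-0.01, adjusted p = 0.97). Of 30 autophagy genes tested, 6 were upregulated and 1 downregulated, which are 20.0% and 3.33% (median 0.01), among them Trp53inp2 (2653, 3046, 3110 and 4387 and 6516, 5985, 6927 and 6441, log2 fold change 0.97, adjusted p = 2.58e-05), and 3 and 2 were upregulated without PTU mice B3 and B5. In these small counts, single mice mattered also for 1 downregulated heat shock gene without 12 h mouse B19, for 2 downregulated autophagy genes without 12 h mouse B20, and for the integrated stress response, with 1 gene higher without any single one of PTU mice B2, B3 and B5 and 12 h mice B21 and B23 and 1 lower without 12 h mouse B20.

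In the machinery of protein turnover and growth, the share of upregulated members was between 2.74% and 6.25% in each list, beside the 13.6% of all genes. The share of downregulated members was 1.37% for the cytosolic ribosome, and 10.8% for the proteasome and 12.5% for the cell cycle, both near the 12.1% of all genes. Of 73 proteins of the cytosolic ribosome tested, 2 were upregulated and 1 downregulated (median 0.04), and these are uncertain because pseudogenes share their reads. Without PTU mouse B4 or B5 or 12 h mouse B19, 4 of them were upregulated, and without PTU mouse B2, 2 were downregulated. Of 37 proteasome subunits, 2 were called higher and 4 lower (median -0.08), with 0 higher without PTU mouse B2, 1 higher without any single one of PTU mice B3 and B5 and 12 h mice B20, B21 and B23, and 2 lower without PTU mouse B5 or 12 h mouse B23. Of 16 cell cycle genes tested, 1 was upregulated, the cyclin Ccne2 (1.22, adjusted p = 0.00456), and 2 were called lower (median -0.02), of which Ccnd2 (-0.77, adjusted p = 0.00256) kept its call in every fit without a single mouse and Mcm4 did not without any single one of PTU mice B2, B3 and B4 and 12 h mice B19, B20 and B23 (adjusted p up to 0.116 over the alternatives). Of 19 interferon-stimulated genes tested, Gbp3 was upregulated (1.69, adjusted p = 8.7e-05) and 0 were downregulated (median -0.02), while 2 were upregulated without any single one of PTU mouse B4 and 12 h mice B19 and B20, and 1 was downregulated without 12 h mouse B20. Without the mice richest in muscle markers, 6 angiogenic genes and 1 lipid droplet gene were upregulated, 4 matrix genes, 1 lipogenic gene and 1 Krüppel-like factor were downregulated, and 2 proteasome subunits and 1 cell cycle gene were called lower.

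**Figure D4:**
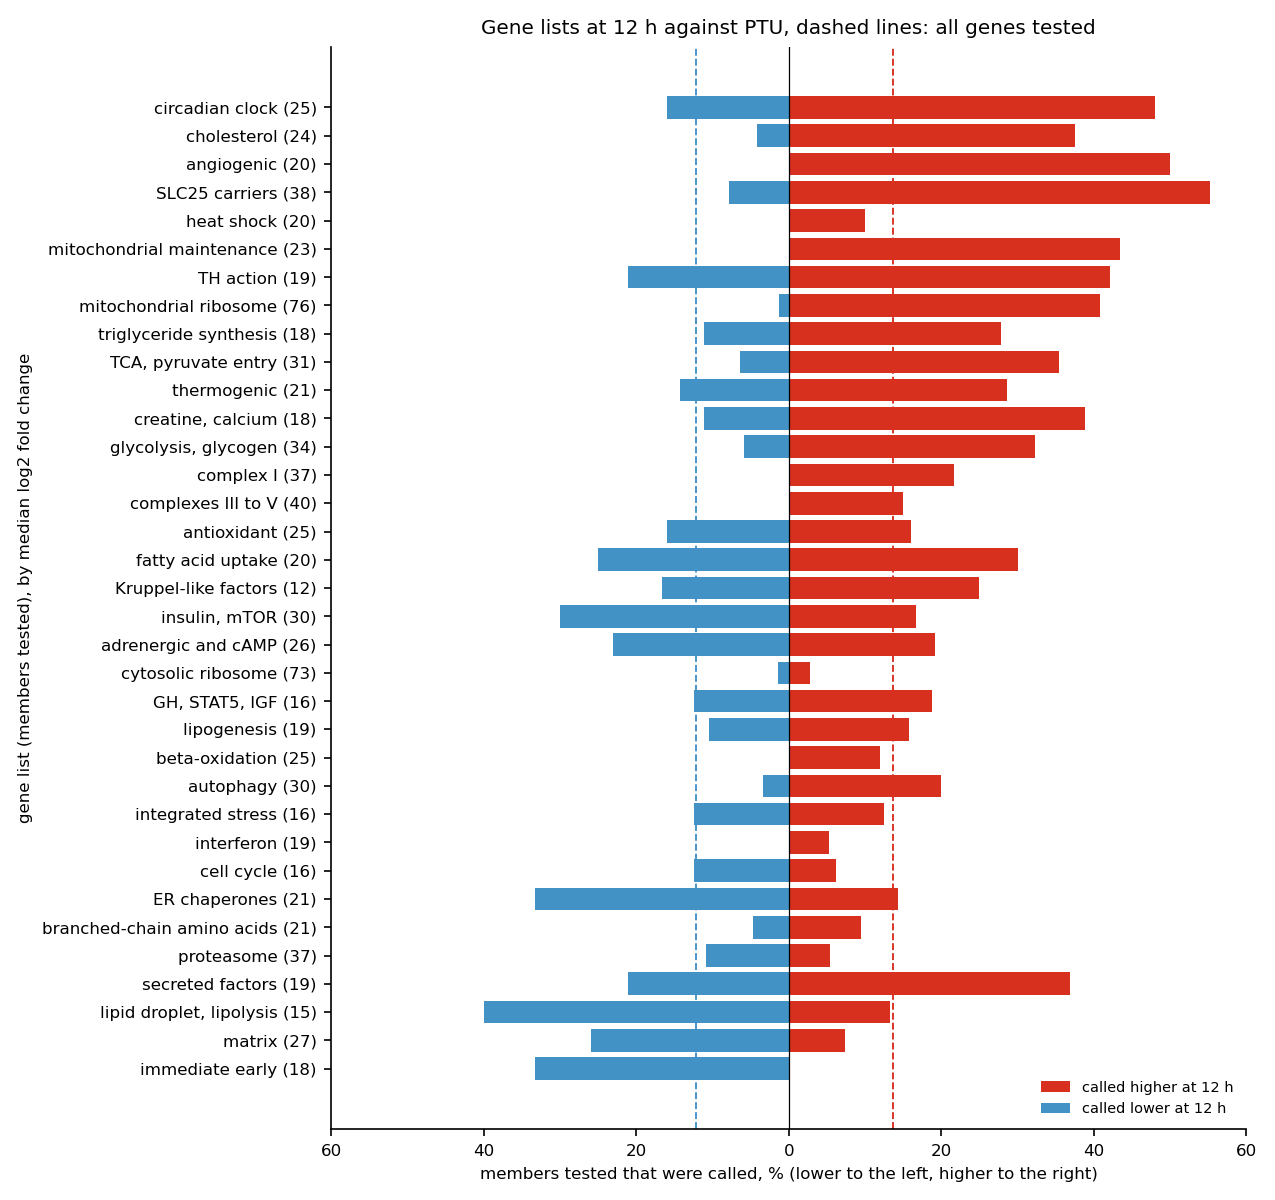
Share of the tested members of each gene list that was called higher (red, to the right) or lower (blue, to the left) at 12 h than in PTU, in percent, with lists in the order of their median log2 fold change and the number of members tested in brackets. Dashed lines mark the 13.6% and 12.1% of all genes tested. SLC25 carriers, angiogenic and clock genes have the largest shares of upregulated members, and lipid droplet genes the largest share of downregulated ones.

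At 12 h, 44 genes were higher and 33 lower than in PTU, at 6 h and at 24 h alike, by the test against each of the 3 groups. Without 12 h mice B19, B20 and B21 in turn these counts were 27 and 78, 28 and 11, and 19 and 9. The clock genes Per2 and Hlf were among the 44, and 0 clock genes among the 33. They were 21 and 20 with only the compared groups in the fit, 27 and 25 with all 30 mice of the TH experiment, 64 and 42 with DESeq2, 42 and 78 with no filter on low counts and 41 and 21 with a mean count over 50. These comparisons share the 12 h mice, and the genes named here were picked for this pattern, so that their values are a description. As the hour of the day is not given, the hormone and a daily cycle cannot be told apart for these genes either. Among the higher genes, Wee1, a kinase that delays mitosis, had means of 70.5 ± 4.99 normalized counts (SD, n = 4) in PTU, 66.05 ± 27.1 at 6 h, 247 ± 73.0 at 12 h and 132 ± 42.9 at 24 h, and its call against 24 h was lost without any single one of 12 h mice B19, B20 and B21 and 24 h mice B27 and B28 (adjusted p up to 0.0942). Hsd17b7 of cholesterol synthesis had 220.1 ± 61.5, 208 ± 17.6, 447 ± 82.4 and 207 ± 44.1 at the same times, so that the 12 h mice stood above all mice of these other groups. Inmt, a methyltransferase of indolamines, had 59.7 ± 26.4, 47.95 ± 11.4, 121 ± 13.5 and 55.5 ± 12.4. Vat1l, Cabcoco1 and Gdap10, the last of which lies within the span of Nampt, completed the 6 genes shown in this direction. Without the mice richest in muscle markers, the calls of Inmt and Gdap10 against PTU were lost (adjusted p up to 0.0729 and 0.0532). The call of Vat1l against 6 h was lost without 12 h mouse B23 or 6 h mice B15 or B17 (adjusted p up to 0.0581). That of Gdap10 was lost against 6 h without any single one of 12 h mice B19, B20 and B21 and 6 h mice B12, B13, B15 and B17 (adjusted p up to 0.16) and against 24 h without any single one of 12 h mice B19 and B21 and 24 h mice B26 and B28 (adjusted p up to 0.0761).

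Among the lower genes, Tshr had 663 ± 240.4 in PTU, 194 ± 73.8 at 6 h, 35.7 ± 5.74 at 12 h and 212 ± 26.6 at 24 h, while Adrb3 had 3985 ± 179, 1148 ± 491, 425 ± 177 and 1122 ± 572. Both receptors had their lowest mean at 12 h and were higher again at 24 h. The call of Adrb3 against 6 h was lost without any single one of 12 h mice B20, B21 and B23 and 6 h mice B12 and B15 (adjusted p up to 0.123). Prkab2, a subunit of the energy sensor AMPK, had 75.04 ± 9.19, 74.5 ± 21.6, 37.3 ± 4.41 and 89.2 ± 27.2, and B3galt2 had 2900 ± 651, 268 ± 102, 61.3 ± 12.3 and 144 ± 60.8. Their calls were lost against 6 h without any single one of 12 h mice B19, B20 and B21 and 6 h mice B12 and B17 for Prkab2 and against 24 h without any single one of 12 h mice B19, B20 and B23 and 24 h mice B27 and B28 for B3galt2 (adjusted p up to 0.096 and 0.0926). Cmya5 (453, 141, 231 and 315 in PTU and 212, 49.5, 55.7 and 72.4 at 12 h) and Myl1 (885, 408, 539 and 611 and 476, 297, 278 and 271) are genes of striated muscle. Their calls against PTU were lost without any single one of PTU mice B2 and B5 and 12 h mice B20, B21 and B23 for Cmya5 and without any single one of PTU mice B2, B4 and B5 and 12 h mice B20, B21 and B23 for Myl1 (adjusted p up to 0.105 and 0.178 over the alternatives), those against 6 h without 12 h mice B20 or B21 or 6 h mouse B12 for Cmya5 and any single one of 12 h mice B20, B21 and B23 and 6 h mice B12 and B15 for Myl1 (up to 0.0733 and 0.164), and those against 24 h without 24 h mouse B26 and any single one of 12 h mice B20, B21 and B23 and 24 h mice B26 and B28 in the same order (up to 0.0511 and 0.122). The muscle marker sums given above moved with these genes, which was not tested further.

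**Figure D5:**
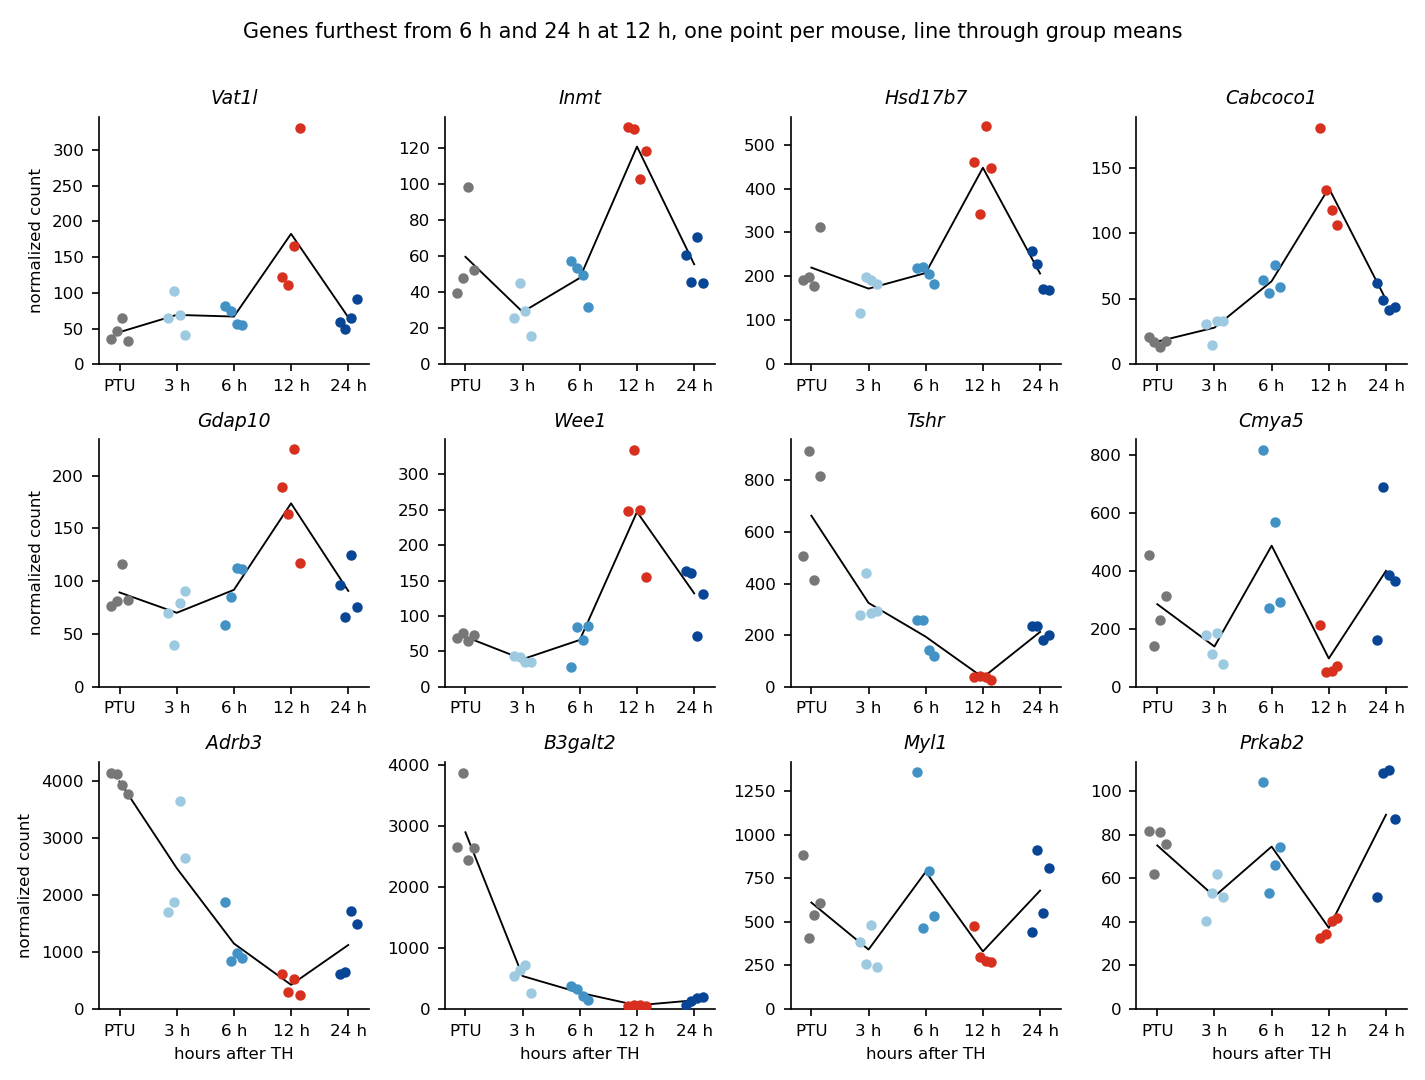
Normalized counts (linear axis from 0) of the 6 genes furthest above and the 6 furthest under both 6 h and 24 h at 12 h, among called genes outside the clock list with a mean count over 50, in the PTU mice and 3 h, 6 h, 12 h and 24 h after TH, with 1 point per mouse, 4 mice per group and a line through the group means. Tshr is under 42 in all 12 h mice and over 118 in all mice of the other groups, and the muscle genes Cmya5 and Myl1 spread widely within their groups.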

How the data were processed

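The deposited values are raw read counts per gene symbol. Per the paper's methods, its authors took reads from a public archive, aligned them with Bowtie to GRCm38, removed reads of mapping quality under 10 and counted with HTSeq. Those methods do not say whether the deposited counts were made by the same steps. The submitters' processing notes name Bowtie2 2.3.2.2 and mm10. The annotation and the strand setting of the counting were not given in the sources used here. Of the symbols listed, 14 were not in the reference annotation used here for coordinates (0.0316% of counts), and 0 columns went unmapped.

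Counts of the 20 wild-type mice of the time course were fitted together with edgeR 4.0.16 in R 4.3.3 (TMM scaling, mean normalized count over 10, quasi-likelihood test, Benjamini-Hochberg adjusted p under 0.05, no fold threshold). Normalized counts were scaled by the TMM library size. The standard error is the log2 fold change divided by the root of F. Counting intervals are exact binomial ones and cover counting error only. The 24 pairs of libraries within a group differed by more than sampling noise, with a chi-square per degree of freedom of at least 8.08 (median 17.1).

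Members and lists were chosen with earlier results of these data known. By rule, the genes to name were the clock genes, the 12 largest changes per direction outside the clock with mean count over 50 and no overlap, in each list the 2 lowest adjusted p per direction and its first member, 8 genes with a known role in TH action or thermogenesis, and the 6 genes per direction furthest at 12 h against 6 h and 24 h, apart from a few genes not reported here, and most of them are printed. A further 35 genes were chosen after their values were seen: Abhd5, Acot11, Adcy3, Agpat1, Cd36, Ddit4l, Dgat2, Esrra, Fabp4, Fdft1, Gapdh, Hk1, Irs3, Lipe, Mid1ip1, Nrip1, Pde3b, Pde4d, Polrmt, Rxra, Rxrb, Sesn3, Slc27a1, Slc2a4, Thrb, Twnk, Xbp1, Nr4a3, Lep, Ckb, Alpl, Cdh5, Pi16, Dpp4 and Cnn1. Overlap of exons with other genes was read from the annotation, and many genes named have a noncoding partner on the opposite strand.

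The fit was tested on simulated counts for 13003 genes with 200 changed, of which 77% of the 2-fold and 97% of the 4-fold changes were recovered, with 10 false among 184 calls. Alternatives were DESeq2 1.42.0, RLE size factors, no filter on low counts, mean count over 50, mitochondrially encoded genes left out, all 30 mice of the TH experiment or only the groups compared in the fit, each mouse left out, and, added after the data were seen, the mice richest in muscle markers left out.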

Additional observations from a re-analysis of the deposited data

Results flagged for a closer look

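A mouse that stood apart from the other 3 of its group was looked for in the PTU and the 12 h group of each of the 221 genes taken by the rule for naming or added to it, by the gap to its nearest neighbour as a share of the group's whole range, against Dixon's critical value for 4 mice. Of 442 groups, 33 passed it, where chance gives 1 in 20, or about 22.1. Of the clock genes, this share was 0.94 for Arntl at 12 h, where mouse B23 had 72.4 normalized counts and the others 8.16 to 12.0. It was 0.9 for Per3, 0.838 for Dbp and 0.921 for Tef in PTU, where mouse B4 was the highest in each case. PTU mouse B4 also stood apart for Nupr1 (0.93), Mt1 (0.857) and Gdap10 (0.862), where it was high, and for Cat (0.985) and Lamp1 (0.971), where it was low. PTU mouse B5 was the highest for 9030619P08Rik (1, with the other 3 mice at 0), Pgk1 (0.846), Pdk1 (0.916), Ndufa1 (0.918), Sc5d (0.838), Hsd17b7 (0.84) and Nampt (0.834). PTU mouse B3 was the highest for B3galt2 (0.85), Insr (0.904) and Edem1 (0.966), and PTU mouse B2 stood apart for Plin4 (0.834, lowest) and Mrps6 (0.889, highest).

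At 12 h, mouse B20 stood apart for Pnpla2 (0.839), Cox7a2l (0.874), Adipoq (0.835) and Mid1ip1 (0.945), where it was the highest, and for Stat5b (0.867), where it was the lowest. Mouse B21 was the highest for Thra (0.843), Angptl4 (0.846) and Dgat2 (0.847), mouse B23 for Ndufb10 (0.885), and mouse B19 for Nrip1 (0.853) and the muscle genes Cmya5 (0.859) and Myl1 (0.873).

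The effect of TH against the shared PTU mice differed between 12 h and another time for several clock genes and strongest genes, by edgeR's test of 12 h directly against that time. The log2 effect at 12 h less that at 24 h was -3.0 for Arntl, -0.90 for Clock, -3.94 for Npas2, 2.82 for Per2, 3.24 for Per3, 0.77 for Cry2, 2.01 for Nr1d2, 3.29 for Dbp, 2.19 for Tef, 1.63 for Hlf, 1.62 for Bhlhe41, 2.42 for Ciart and 2.01 for Usp2. Of these calls, that of Cry2 was lost without 12 h mouse B21 or 24 h mice B27 or B28 (adjusted p up to 0.0773 with edgeR). Outside the clock the log2 difference was -0.86 for Gm32468, -0.97 for Hr, -1.24 for B3galt2, -2.55 for Tshr, -1.40 for Adrb3, 1.28 for Gpat3, -1.46 for Dapk1, -2.41 for Thbs1 and -2.56 for Cldn5. Of these, Gpat3 had a lower level at 24 h than at 12 h, and the other 8 genes a higher one.

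The log2 effect at 12 h less that at 6 h was 1.34 for Per2, -1.59 for Nr1d1 and 1.26 for Hlf among clock genes. Among the upregulated genes it was 2.91 for Gm32468, 2.04 for 9030619P08Rik, 1.54 for Apln, 2.12 for Fndc5, 1.23 for Fbxl2 and 1.70 for Id2, all of which were higher at 12 h. Among the downregulated genes it was -2.11 for B3galt2, -2.42 for Tshr, -1.43 for Adrb3, -1.08 for Gpat3 and -1.37 for Mc2r, all of which were lower at 12 h.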

How the results depend on the processing

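With 4 mice in each group and 7805938 to 14615534 counts in a library, small changes were recovered in part, and the number of called genes moved with the setting. Genes higher at 12 h than in PTU numbered 1471 to 1648 and genes lower 1268 to 1501 when each mouse was left out in turn, 1834 and 1535 with DESeq2, and 1318 and 1221 without the mice richest in muscle markers. Against 6 h, 65 to 222 genes were higher and 40 to 191 lower without single mice, 351 were higher with DESeq2, 126 were higher with all 30 mice of the TH experiment in the fit, and 315 were lower with no filter on low counts. Against 24 h, 439 to 854 were higher and 418 to 841 lower without single mice, and 327 were higher and 443 lower with only the compared groups in the fit. The clock genes called numbered 13 to 17. Of 221 genes taken by the rule for naming or added to it, not all of which are printed, 195 were called, 36 of these lost the call in 1 or more settings, 33 of them when a mouse was left out, 4 others gained one, and 0 changed direction as called genes. Of 68 counts of list members, 38 moved by over 1.5 times in 1 or more settings. The causes were not tested. No paired analysis was possible because the wild-type groups compared share no mouse number.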

Other observations

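Of the creatine and calcium list, 2 enzymes of creatine phosphate turnover, named here after their values were seen, were upregulated. Ckb, the brain-type creatine kinase, had 16.1, 18.3, 15.8 and 16.7 normalized counts in PTU mice B2, B3, B4 and B5 and 92.8, 45.4, 116 and 444 in 12 h mice B19, B20, B21 and B23. The groups did not overlap, but the treated mice spread widely, and the log2 fold change was 3.35 (standard error 0.59, edgeR adjusted p = 0.000217). Alpl, a phosphatase that can act on creatine phosphate, rose from 117, 109, 101 and 137 to 302, 267, 276 and 344, also without overlap (log2 fold change 1.36, standard error 0.23, adjusted p = 0.000148).

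Lep, which encodes the satiety hormone leptin and was also picked after its values were seen, had 11.4, 17.2, 22.1 and 45.6 in PTU and 145, 266, 105 and 43.1 at 12 h. The lowest treated mouse lay within the range of the PTU mice, and the log2 fold change was 2.56 (standard error 0.73, adjusted p = 0.013), a call that was lost without 12 h mouse B20 (adjusted p up to 0.0669 over the alternatives).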
